A study of Mus musculus with 39 samples.

Results

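Fabp1, Fabp2, Fabp4, Fabp5, Dbi, Scp2 and Pctp encode soluble proteins that bind and carry lipids inside the cell, most of them small and cytosolic, and their mRNAs were followed across sucrose gradients of mouse liver. The 7 genes were chosen by name, as 4 fatty acid binding proteins, the acyl-CoA binding protein, a sterol carrier protein and the phosphatidylcholine transfer protein, and all have a row in the tables of both gradients, which share 13230 genes. The set is not complete, since Fabp7, a further fatty acid binding protein in both tables, is not in it and is described with the related genes. The question put to them was whether the rise of Fabp1 RNA in the middle of the gradient is shared by the others. Because that rise posed the question, the middle-zone values of Fabp1 are given as a description with no test.

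The samples came from the livers of wild type FVB female mice, without any treatment, and the animals' ages are not given in the sources used here. Each of 2 gradients was loaded with the detergent-free, nucleus-depleted homogenate of 1 mouse, and RNA was sequenced from 17 fractions of gradient 1 (4 to 19 and 21) and 22 fractions of gradient 2 (3 to 24), numbered from the lightest sucrose to the densest. In this method, called ATLAS-Seq, ribosomal RNA is removed and the rest of the RNA of every fraction is sequenced, so that each RNA obtains a profile across the gradient. Values are TPM, a unit of relative transcript abundance that is scaled to the length of the RNA and to a fixed total per library, so a profile gives the share of an RNA within each fraction and not the amount of RNA in it.

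Lipids such as long-chain fatty acids and their CoA esters dissolve poorly in water, and small cytosolic proteins hold them in an internal cavity while they move between membranes, mitochondria, peroxisomes and the nucleus. Fabp1 is the main fatty acid binding protein of hepatocytes and one of their most abundant cytosolic proteins, whereas Fabp2 is best known from the small intestine, Fabp4 from adipocytes and macrophages, and Fabp5 from epidermis and macrophages. All 4 belong to a single family of intracellular lipid-binding proteins, while Dbi, Scp2 and Pctp have unrelated folds.

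The 4 fatty acid binding protein mRNAs are short and lie at separate places in the genome (GRCm38, the assembly also called mm10, with the GENCODE release M21 models). Fabp1 lies on chr6:71199827-71205023, plus strand, with a transcript of 553 nucleotides of which 381 are coding. Fabp2 lies on chr3:122895072-122899506, plus strand, with 965 nucleotides and 396 coding. Fabp4 lies on chr3:10204088-10208576, minus strand, with 896 nucleotides and 396 coding, and Fabp5 lies nearby on chr3:10012548-10016607, plus strand, with 987 nucleotides and 405 coding. The first 30 coding bases of each, read 5′ to 3′ from the GENCODE transcripts with the start codon in capitals, are shown because the likeness of these sequences is set beside the likeness of the profiles further on.
Fabp1: ATGaacttctccggcaagtaccaattgcag
Fabp2: ATGgcattcgacggcacgtggaaagtagac
Fabp4: ATGtgtgatgcctttgtgggaacctggaag
Fabp5: ATGgccagtcttaaggatctcgaagggaag

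The other 3 genes have longer or more varied models. Dbi, the acyl-CoA binding protein, lies on chr1:120113280-120121078, minus strand, and the longest of its coding models has 491 nucleotides with 405 coding. Pctp, which moves phosphatidylcholine between membranes, lies on chr11:89982665-90002894, minus strand, with 2723 nucleotides and 642 coding. Scp2, on chr4:108043839-108144998, minus strand, has 2640 nucleotides and 1641 coding, since its long form joins a peroxisomal thiolase to the sterol carrier domain. The end of its coding sequence (bases 1615 to 1644) is shown with the last 3 sense codons in capitals, which encode the signal that sends the protein to peroxisomes.
Scp2: cagcttcagccgggcaaaGCTAAGCTGtga

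Column totals were between 998099 and 999202 TPM, and each library held between 10532 and 12558 genes over 1 TPM. The files hold no read counts, so the depth of a library and the counting error of a value are unknown here, and the spread between the 2 gradients is the only measure of error. Of 8 hepatocyte markers all were in both tables, with a summed level between 12403 and 63556 TPM in gradient 1 and between 19286 and 51326 TPM in gradient 2. For tests, the fractions were grouped into a light zone (4 to 7), a middle zone (10 to 13) and a dense zone (16 to 19), log2(TPM + 1) was averaged over the 4 fractions of a zone in each gradient, and the 6 zone means were compared with limma, with Benjamini-Hochberg adjustment over the 11754 genes with a mean of at least 1 TPM. The middle zone was compared with the light zone, with the dense zone, and with the mean of both ends, and the last of these can be positive for an RNA that is higher at one end than in the middle. All 7 RNAs passed this filter. With 2 gradients an exact permutation test of a single gene cannot go below p = 0.333 for a zone against another, or 0.0667 for the middle zone means against the 4 at the ends, so all p-values come from the model fitted across genes.

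Among the listed genes, Fabp1 had the highest TPM in most fractions of the gradient center. Its TPM in gradient 1 had a lowest value of 2348 at fraction 5, a median of 34124 and a highest value of 89501 at fraction 13, where it made up 8.96% of the summed TPM of the library. In gradient 2 the lowest value was 2470 at fraction 5, the median 23729 and the highest value 54786, again at fraction 13, or 5.48% of the summed TPM. It ranked first among all listed genes in fractions 10 to 16 of gradient 1 and in fractions 11 to 15 and 17 of gradient 2, whereas at fraction 5 it ranked 49 and 46.

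The peak of Fabp1 was sharper in gradient 1 than in gradient 2. The second highest fraction reached 76.1% of the peak in gradient 1 (fraction 14) and 95.4% in gradient 2 (fraction 12), and 4 and 7 fractions, respectively, held over 50% of the peak value. Beyond the peak Fabp1 declined to a plateau and not to its light level, with 25849 TPM in the densest library of gradient 1 and 23508 TPM in that of gradient 2.

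**Figure D1:**
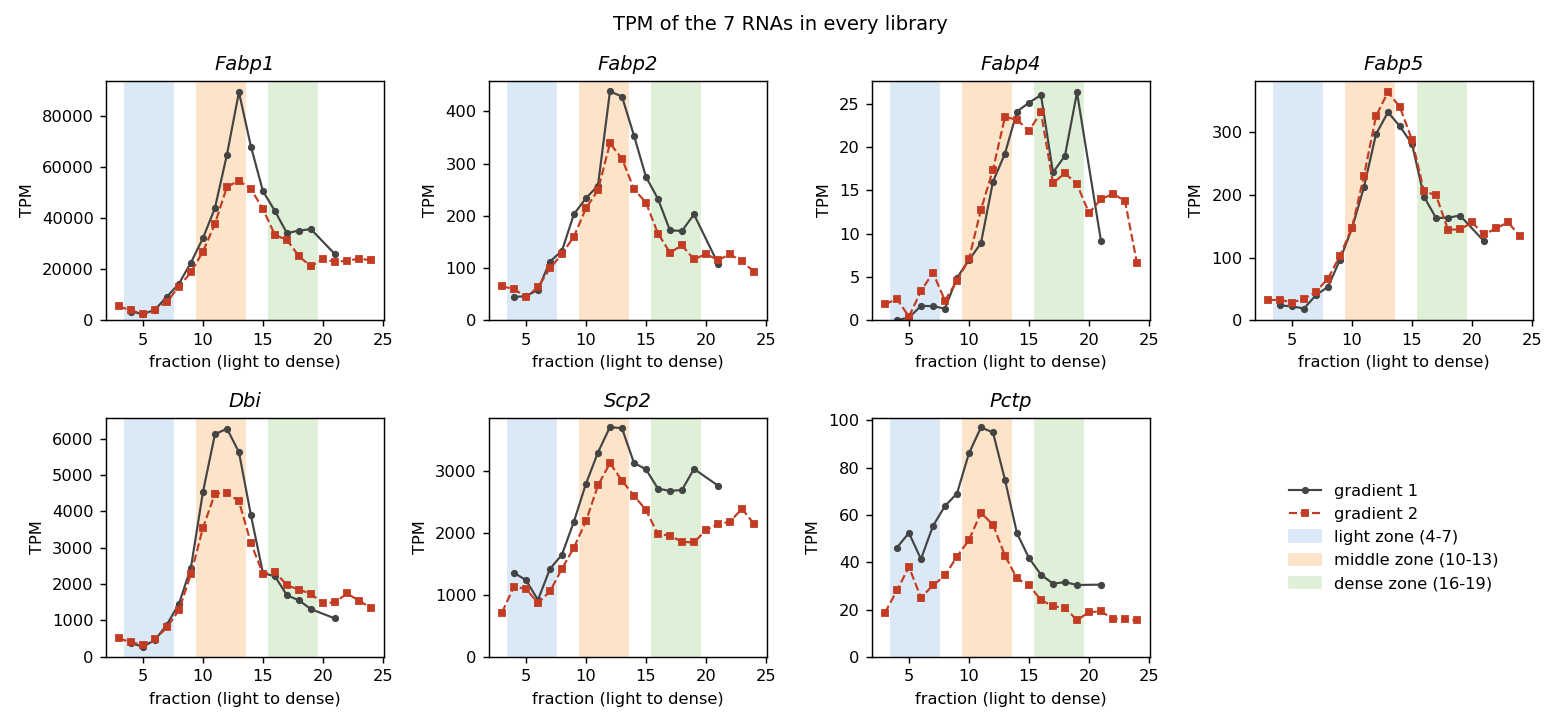
TPM (y axis, linear, from 0, a separate scale for each RNA) of the 7 RNAs against fraction number (x axis, light to dense) in gradient 1 (circles, 17 libraries) and gradient 2 (squares, 22 libraries), 1 point per library, with the light, middle and dense zones shaded. The highest point lies in the middle zone in both gradients for every RNA except Fabp4, whose highest points are at fraction 19 in gradient 1 and fraction 16 in gradient 2.

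Besides Fabp1, whose peak posed the question, the highest fraction lay in the middle zone in both gradients for 5 of the 6 RNAs, with Fabp4 as the exception. Among the 11308 genes with a mean of at least 1 TPM in each gradient, 9.64% had their highest fraction there in both. Fabp1 and Fabp5 were highest at fraction 13, Fabp2, Dbi and Scp2 at fraction 12, and Pctp at fraction 11, in both gradients in every case. The peaks of Fabp1 and these 5 RNAs were between 1.49 and 2.63 times their own mean in gradient 1 and between 1.62 and 2.32 times in gradient 2. Scp2 had the flattest profile and Fabp1 the steepest in gradient 1, and Scp2 again the flattest and Fabp5 the steepest in gradient 2.

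**Figure D2:**
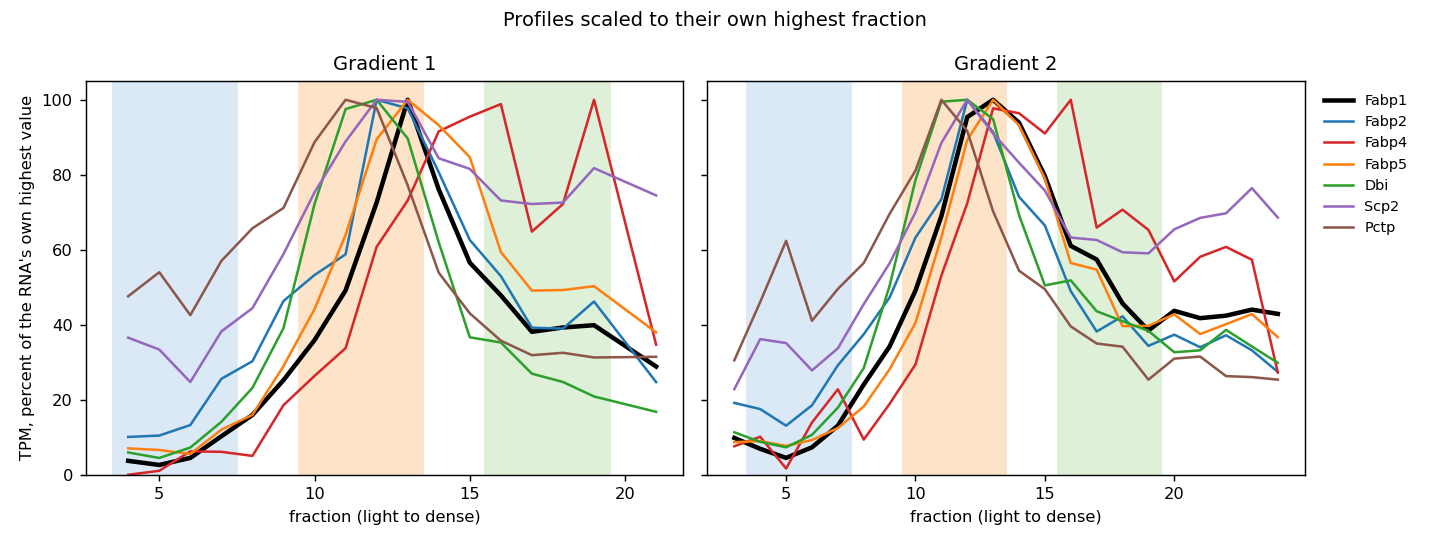
The same TPM as a percentage of each RNA's own highest value (y axis) against fraction number (x axis), with gradient 1 on the left, gradient 2 on the right and the zones shaded as in the plot of TPM. Pctp rises first and peaks at fraction 11, Dbi, Fabp2 and Scp2 follow at fraction 12, Fabp1 (thick line) and Fabp5 at fraction 13, and Fabp4 stays high into the dense zone.

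Fabp5, which binds fatty acids and their derivatives and is shared between many cell types, followed Fabp1 most closely of the 7. In the light zone it measured 23.4, 22.0, 18.4 and 40.0 TPM in gradient 1 and 32.8, 28.1, 33.8 and 45.4 TPM in gradient 2. In the middle zone it measured 146.7, 212.5, 297.0 and 332.2 TPM in gradient 1 and 147.7, 230.9, 325.7 and 364.7 TPM in gradient 2. No middle library overlapped with a light one, and values rose toward fraction 13 in both gradients.

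On the log2 scale Fabp5 was 3.01 higher in the middle than in the light zone (SE 0.20, adjusted p = 0.00110, limma, n = 2 gradients), an 8.08-fold difference. Against the mean of both ends it was 1.76 higher (SE 0.17, adjusted p = 0.00501). From the middle to the dense zone the difference was −0.50 (SE 0.20, adjusted p = 0.112), and with the gradient as a block it passed the threshold (adjusted p = 0.0322), as did 39.3% of all genes in this direction. Over the 15 alternatives of the processing this p lay between 0.0322 and 0.353, and 1 of them was under the threshold. The dense zone, between 144.6 and 206.0 TPM in its 8 libraries, overlapped with the middle zone.

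Fabp2, which binds long-chain fatty acids with a single site, was less abundant than Fabp1 in every library. Its zone means were 65.7 ± 0.87 TPM in the light, 308.8 ± 43.6 in the middle and 166.6 ± 39.4 in the dense zone (SD, n = 2 gradients). The 8 light libraries ran from 44.3 to 112.2 TPM, the 8 middle libraries from 214.4 to 438.5 TPM, and the 8 dense libraries from 116.5 to 232.4 TPM, so that middle and dense libraries overlapped. Fabp2 was 1.56 higher in the middle zone than in the mean of both ends (log2, SE 0.18, adjusted p = 0.00651). It rose by 2.25 from light to middle (adjusted p = 0.00137) and fell by 0.87 from middle to dense (adjusted p = 0.0320, with 9 of the 15 alternatives under the threshold and p from 0.00703 to 0.165).

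Enterocytes are the cells in which Fabp2 is classically described. None of 6 enterocyte markers (Vil1, Lct, Sis, Alpi, Cdh17, Mep1a) had a row in both tables. Fabp2 had between 44.3 and 438.5 TPM in every library.

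Dbi binds medium- and long-chain acyl-CoA esters and was the second most abundant of the 7 RNAs at its peak. In gradient 1 it rose from 281.5 TPM at fraction 5 to 6278 TPM at fraction 12 and was at 1054 TPM in the last library. In gradient 2 it rose from 330.9 TPM at fraction 5 to 4511 TPM at fraction 12 and was at 1347 TPM in the last library. The last library thus held 16.8% of the peak value in gradient 1, the lowest share of the 7, and 29.9% in gradient 2. Its middle libraries (3546 to 6278 TPM) did not overlap with its dense ones (1311 to 2339 TPM), and both were above its light ones (281.5 to 886.4 TPM).

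Dbi had the largest difference between the middle zone and the mean of both ends among the 7, 2.40 on the log2 scale (SE 0.19, adjusted p = 0.00444), which ranked 15 of the 11754 genes tested. It rose by 3.38 from light to middle (10.4-fold, adjusted p = 0.00110) and fell by 1.42 from middle to dense (adjusted p = 0.00888, with 12 of the 15 alternatives under the threshold and p from 0.00260 to 0.116). Fabp1 ranked 54 with 2.05, Fabp5 131 and Fabp2 252 in the same order.

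Scp2, which transfers sterols and other lipids and is largely peroxisomal, was high over a broad part of the gradient. Its zone means were 1136 ± 137 TPM in the light, 3052 ± 453 in the middle and 2344 ± 616 in the dense zone (SD, n = 2). In gradient 1 12 fractions and in gradient 2 16 fractions held over 50% of the peak value. The dense libraries, at 1846 to 3034 TPM, overlapped with the middle ones, at 2189 to 3709 TPM.

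Against the mean of both ends Scp2 was 0.91 higher in the middle zone (log2, SE 0.22, adjusted p = 0.0445). This call was close to the threshold and held in 7 of 15 alternatives, with adjusted p from 0.00387 to 0.307. Leaving out any zone mean but that of gradient 1 in the dense zone ended it (adjusted p = 0.0784 to 0.307), and so did testing all genes without a filter (adjusted p = 0.0508), rescaling (0.0650) and zones shifted inward (0.0556). The rise from light to middle, 1.43, passed the threshold (adjusted p = 0.00720, under the threshold in 14 of 15 alternatives, p from 0.000673 to 0.0598). The dense zone was 1.04 above the light zone (adjusted p = 0.0151, under the threshold in 11 of 15 alternatives, p from 0.00118 to 0.0963). The difference from middle to dense, −0.39, did not pass the threshold (adjusted p = 0.326).

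Pctp, a member of the START domain family, was the one RNA that was higher in the light than in the dense zone in both gradients. In gradient 1 its zone means were 48.8 TPM in the light, 88.3 in the middle and 31.9 in the dense zone, and in gradient 2 they were 30.3, 52.3 and 20.4 TPM. The gradients differed in level by a similar factor in every zone, so the means had a wide spread (39.6 ± 13.1, 70.3 ± 25.4 and 26.2 ± 8.11 TPM, SD, n = 2), while the order of the zones was the same in both.

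Without a term for the gradient, the middle zone of Pctp was 1.09 above the mean of both ends (log2, SE 0.33, adjusted p = 0.0720). With the gradient as a block, which takes the difference in level into account, the same value passed the threshold (adjusted p = 0.00117). The differences of 0.81 from light to middle (adjusted p = 0.130) and −0.57 from light to dense (adjusted p = 0.233) also passed it with the block (adjusted p = 0.00127 and 0.00305), which called 37.2% of all genes higher in the middle than in the light zone and 50% lower in the dense than in the light zone. Over the 15 alternatives, these 3 adjusted p ran up to 0.389, 0.483 and 0.697, and 3, 1 and 1 of them were under the threshold. The fall from middle to dense was 1.38 (adjusted p = 0.0449), but it was under the threshold in only 5 of 15 alternatives, with p from 0.000954 to 0.211.

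Fabp4, the adipocyte and macrophage form, had the lowest mean level of the 7 and the densest profile. In the light zone it was listed at 0, 0.281, 1.64 and 1.61 TPM in gradient 1 and at 2.44, 0.401, 3.35 and 5.48 TPM in gradient 2. In the middle zone it measured 6.94, 8.89, 16.0 and 19.2 TPM in gradient 1 and 7.07, 12.8, 17.4 and 23.5 TPM in gradient 2. In the dense zone it measured 26.0, 17.1, 19.0 and 26.3 TPM in gradient 1 and 24.0, 15.8, 17.0 and 15.7 TPM in gradient 2. All middle libraries were above all light ones, and the dense libraries overlapped with the middle ones.

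Fabp4 rose by 2.51 from light to middle (log2, SE 0.36, adjusted p = 0.00348) and was 3.09 higher in the dense than in the light zone (SE 0.36, adjusted p = 0.00103), and with a pseudocount of 0.1 in place of 1 these differences were 3.50 and 4.12. Its difference from middle to dense was 0.58 (SE 0.36, adjusted p = 0.292), positive in both gradients, and it was −0.092 when the middle zone was set at fractions 12 to 15. Against the mean of both ends it was 0.97 higher in the middle zone (adjusted p = 0.0830), and with the gradient as a block adjusted p = 0.0308. The mean of the ends is low here because the light zone is, and the dense zone was above the middle zone in both gradients. This p ran from 0.0184 to 0.288 over the 15 alternatives, 3 of which were under the threshold. A running mean over 3 fractions placed its peak at fraction 15 in both gradients.

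Cell types other than hepatocytes are present in whole liver, and in a bulk sample a smaller number of cells and less RNA per cell cannot be told apart. All 7 Kupffer cell markers were in both tables, with sums of 196.6, 78.5 and 81.7 TPM in the light, middle and dense zones of gradient 1 and 186.5, 86.5 and 101.7 TPM in gradient 2. All 6 sinusoidal endothelial markers were too, with sums of 88.5, 58.4 and 40.5 TPM in gradient 1 and 59.8, 41.7 and 33.2 TPM in gradient 2. The 8 hepatocyte markers summed to 53708, 13185 and 19878 TPM in gradient 1 and 41330, 20170 and 35010 TPM in gradient 2, and the 5 stellate cell markers to 88.8, 40.4 and 32.1 TPM and 104.6, 41.6 and 29.6 TPM. All 4 of these sums, the hepatocyte one included, were highest in the light zone. Single hepatocyte markers differed from their sum, with Alb highest at fraction 4 in both gradients, Cps1 and Tat at fractions 17 and 23, and Ass1 at 21 and 23. Of 4 cholangiocyte markers 3 were in both tables, and their sum was highest in the dense zone (5.43 and 4.05 TPM). Of 6 adipocyte markers, Cidec alone was in both tables, at 1.97 to 11.8 TPM in gradient 1 and 1.28 to 6.42 TPM in gradient 2. Which cells supplied the Fabp2, Fabp4 and Fabp5 RNA was not tested.

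Set side by side, 4 of the 6 RNAs other than Fabp1 (Fabp2, Fabp5, Dbi and Scp2) were higher in the middle zone than in the mean of both ends with adjusted p under 0.05, and 13.5% of all genes tested were. With the gradient as a block all 6 were, and so were 34.8% of all genes, although the dense zone of Fabp4 was above its middle zone. Without the middle zone of gradient 1, or without that of gradient 2, none of the 6 and no gene of the 11754 passed by limma (2057 and 3023 genes had an unadjusted p under 0.05), and the adjusted p of Fabp2, Fabp5 and Dbi lay between 0.0517 and 0.0727. The middle zone exceeded both other zones within each gradient for 5 of the 6, all but Fabp4, and for 25% of all genes. Both middle zone means exceeded all 4 light and dense zone means for 4 of the 6, all but Fabp4 and Scp2, and for 15.8% of all genes.

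A rise from the light zone was common among the 7. From light to middle, 5 of the 6 RNAs other than Fabp1 rose with adjusted p under 0.05, all but Pctp, and 23.5% of all genes did. With the gradient as a block all 6 did, Pctp included, and so did 37.2% of all genes. From light to dense, 6 of the 7 rose at the same threshold, again all but Pctp, and 22.3% of all genes did, while 39.6% fell. With quantile normalization 30.7% of all genes rose and 29.9% fell from light to dense, and all of the 6 RNAs but Scp2 (adjusted p = 0.0552) still passed. Fabp1 itself was 2.95 higher in the dense than in the light zone (log2, SE 0.29, adjusted p = 0.000671), and this held in all 15 alternatives.

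After the middle zone the means of 5 of the 6 RNAs other than Fabp1 were lower, all but that of Fabp4. From middle to dense, Fabp2, Dbi and Pctp fell with adjusted p under 0.05, 3 of the 6, and 22.5% of all genes did. With the gradient as a block 4 of the 6 did, with Fabp5 in addition, and so did 39.3% of all genes, whereas with a middle zone of fractions 12 to 15 no gene passed by limma (2560 at an unadjusted p under 0.05). The RNAs that both rose from light to middle and fell from middle to dense with adjusted p under 0.05 were Fabp2 and Dbi, 2 of the 6 other than Fabp1, and 6.36% of all genes did so. With the block Fabp5 and Pctp did so too, 4 of the 6, and 14.2% of all genes. Fabp1 was −0.57 from middle to dense (log2, SE 0.29), which like its rise of 3.52 from light to middle (SE 0.29) is given without a test.

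**Figure D3:**
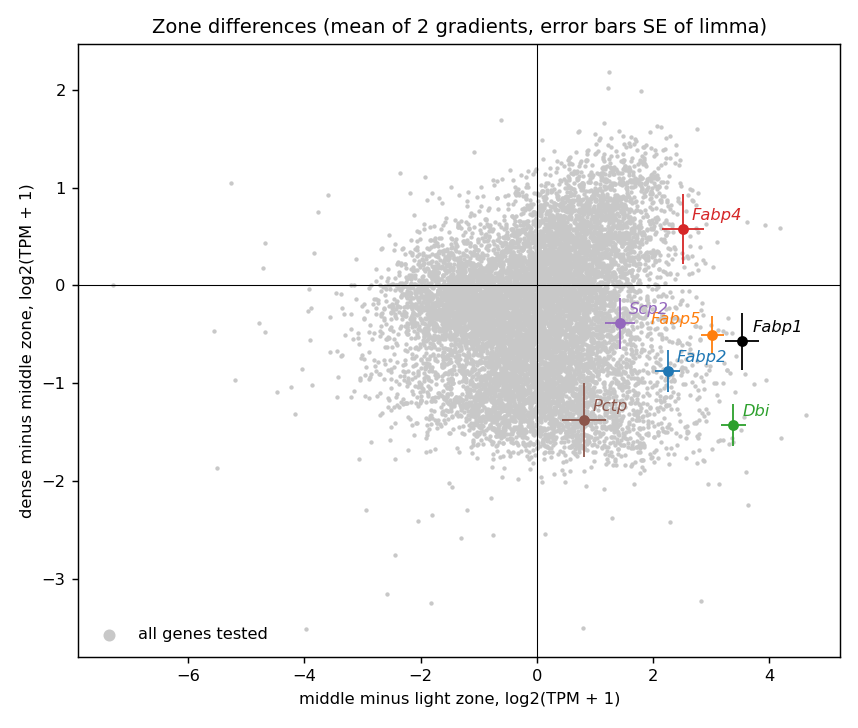
Difference of the middle from the light zone (x axis) and of the dense from the middle zone (y axis), both in log2(TPM + 1) and averaged over 2 gradients, for the 7 RNAs (colored points with the SE of limma) and all genes tested (grey). Dbi, Fabp1, Fabp2, Fabp5, Scp2 and Pctp lie at the lower right, with a rise and then a fall in their means, and Fabp4 lies at the upper right with 2.51 and 0.58.

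Likeness of the whole profiles was described by Pearson's R of TPM over the 17 fractions that both gradients share, in which neighboring fractions are not independent and no p is given. The R with Fabp1 in gradients 1 and 2 was 0.978 and 0.994 for Fabp5, 0.954 and 0.931 for Fabp2, 0.908 and 0.950 for Scp2, 0.790 and 0.873 for Dbi, 0.747 and 0.863 for Fabp4, and 0.309 and 0.362 for Pctp. Spearman's rho for the same pairs was 0.993 and 0.990, 0.919 and 0.941, 0.924 and 0.944, 0.819 and 0.917, 0.821 and 0.873, and 0.152 and 0.287. Over 11307 other genes the median R with Fabp1 was −0.11 in gradient 1 and −0.12 in gradient 2, and R was over 0.9 for 0.982% and 2.95% of them.

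**Figure D4:**
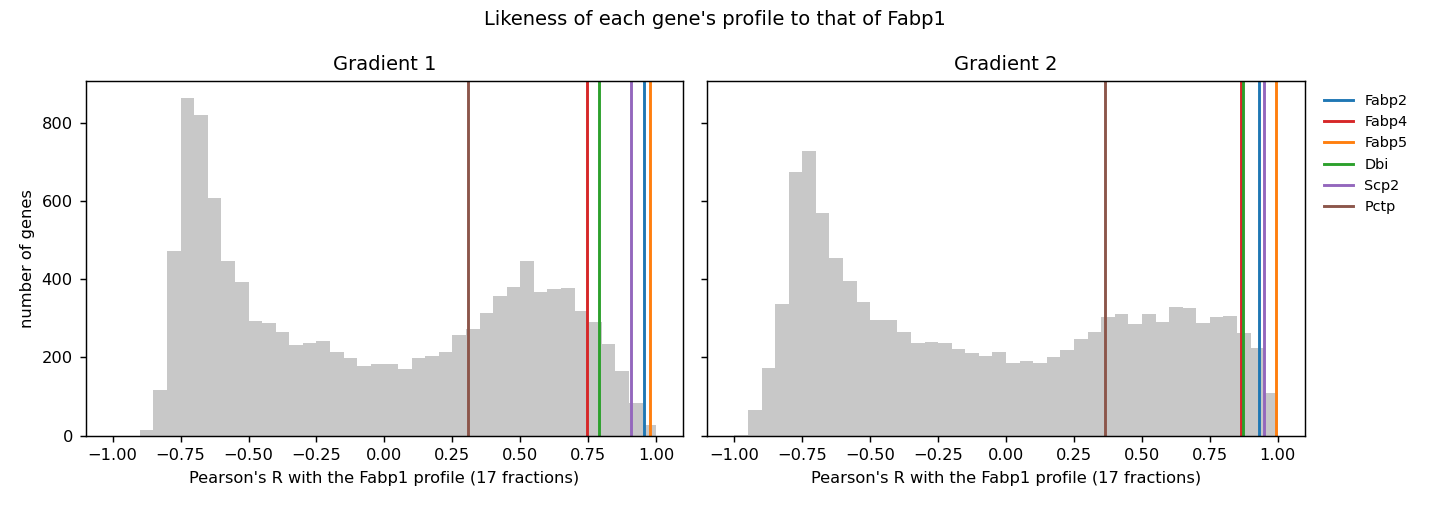
Number of genes (y axis) by Pearson's R of their profile with that of Fabp1 over 17 fractions (x axis), for gradient 1 and gradient 2, with grey bars for genes with a mean of at least 1 TPM in each gradient and vertical lines for the other 6 RNAs. Fabp5 lies at the right end with R of 0.978 and 0.994, and Pctp lies far to the left of the other lines with 0.309 and 0.362.

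When genes with a mean of at least 10 TPM in both gradients were ordered by the lower of their 2 R values with Fabp1, Fabp5 came first of 6598, Fabp2 ranked 37, Scp2 71, Dbi 446, Fabp4 613 and Pctp 2690. The next genes after Fabp5 were Nudc (0.975), a chaperone cofactor, Txn1 (0.975), the cytosolic thioredoxin, Snrpd3 (0.972), a core protein of the spliceosomal ribonucleoproteins, and Ndufs4 (0.970), a subunit of respiratory complex I.

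Each of the other RNAs had its own nearest profiles. Fabp5 was nearest to Snrpd3 and Txn1 (both 0.986), Fabp2 to S100a10 (0.968) and Eif5a (0.966), and Dbi to BC002163 (0.979) and Cox6b1 (0.978), a subunit of cytochrome c oxidase. Fabp4 was nearest to Hist1h1d (0.957), a linker histone, and Psmb1 (0.950), a proteasome subunit. Scp2 was nearest to Mcm10 (0.948) and Mettl26 (0.947), and Pctp to Cebpa (0.966), a liver transcription factor, and Ptma (0.965).

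Among the 21 pairs that the 7 RNAs form, R had a median of 0.788 in gradient 1 (−0.27 to 0.978) and 0.863 in gradient 2 (−0.096 to 0.994). The lowest value in both gradients belonged to Fabp4 with Pctp, the densest and the lightest profile. Pctp was nearest to Dbi among the others (0.792 and 0.684). The profile of each RNA was alike in the 2 gradients, with R between 0.933 (Fabp4) and 0.991 (Fabp5). Over all 11308 genes with a mean of at least 1 TPM in each gradient the median of this R was 0.905 (quartiles 0.765 and 0.960).

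Likeness of coding sequence and likeness of profile did not follow the same order within the fatty acid binding proteins. Fabp4 and Fabp5, whose start sequences are shown above, were the most alike pair in sequence, with 61.4% identical columns in the alignment of their coding sequences, and the other 5 pairs had 49.0% to 50.6%. In profile, Fabp5 was nearer to Fabp1 (0.978 and 0.994) and to Fabp2 (0.936 and 0.908) than to Fabp4 (0.804 and 0.875). These are 6 pairs from 4 genes, and no test was made.

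Ratios of 2 RNAs within a library do not depend on the fixed total of TPM. Per 1000 TPM of Fabp1, Fabp5 had a mean of 6.33 TPM in the light, 4.42 in the middle and 4.68 in the dense zone of gradient 1, and 8.69, 6.12 and 6.29 TPM in gradient 2. The ratio of Scp2 to Fabp1 fell from 329.3 per 1000 in the light (154.3 to 527.7 in its libraries) to 65.0 in the middle zone of gradient 1 and from 276.7 to 66.6 in gradient 2, and in the dense zone it was 75.9 and 70.7. From the middle to the dense zone the mean ratios of both Fabp5 and Scp2 thus changed little.

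The ratios of Dbi and Fabp2 to Fabp1 changed at different places. For Dbi the ratio was 110.5 per 1000 in the light and 109.9 in the middle but 45.6 in the dense zone of gradient 1, and 117.7, 103.7 and 72.1 in gradient 2. For Fabp2 it was 14.9, 6.17 and 5.25 in gradient 1 and 15.8, 6.67 and 5.08 in gradient 2. For Pctp it was 13.1, 1.80 and 0.867 in gradient 1 and 8.31, 1.33 and 0.741 in gradient 2, a decline through all zones. For Fabp4 it was 0.176, 0.220 and 0.596 in gradient 1 and 0.601, 0.340 and 0.661 in gradient 2, with the highest mean in the dense zone in both. In gradient 2 its light libraries (0.162 to 0.834) spanned the range of the dense ones (0.503 to 0.744). Within the middle zone the Dbi ratio was not constant, with single libraries from 62.9 to 141.0 per 1000 in gradient 1 and from 78.1 to 131.7 in gradient 2. The lowest middle library was above every dense library of gradient 1 (36.7 to 51.7), and it overlapped with the dense libraries of gradient 2 (62.6 to 82.1).

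The center of a profile, the mean fraction number weighted by TPM over the 17 shared fractions, gave a similar order. It was 15.1 and 14.5 for Fabp4 in gradients 1 and 2, 13.9 and 13.7 for Fabp5, 13.8 and 13.7 for Fabp1, 13.2 and 12.9 for Scp2, 13.1 and 12.8 for Fabp2, 12.6 and 13.0 for Dbi, and 11.2 and 11.3 for Pctp. Over all 11308 genes the median was 11.3 in both gradients, so that Pctp lay at the median and the other 6 lay on its dense side. Fabp5 and Fabp1 differed by less than the gradients did, and so did Scp2 and Fabp2.

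Short coding sequences were a property that 5 of the 7 RNAs had in common. Among the 811 tested genes with at most 450 coding nucleotides, 48.6% were higher in the middle zone than in the mean of both ends and the median difference was 0.89 on the log2 scale. For genes of over 450 to 900, over 900 to 1800 and over 1800 coding nucleotides the shares were 22.5%, 9.52% and 5.85%, and the medians were 0.27, 0.04 and 0.16. The highest fraction lay in the middle zone in both gradients for 37.1%, 15.2%, 6.24% and 4.53% of the classes. Spearman's rho between coding length and the difference was −0.16 across 10799 genes, which are not independent replicates.

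**Figure D5:**
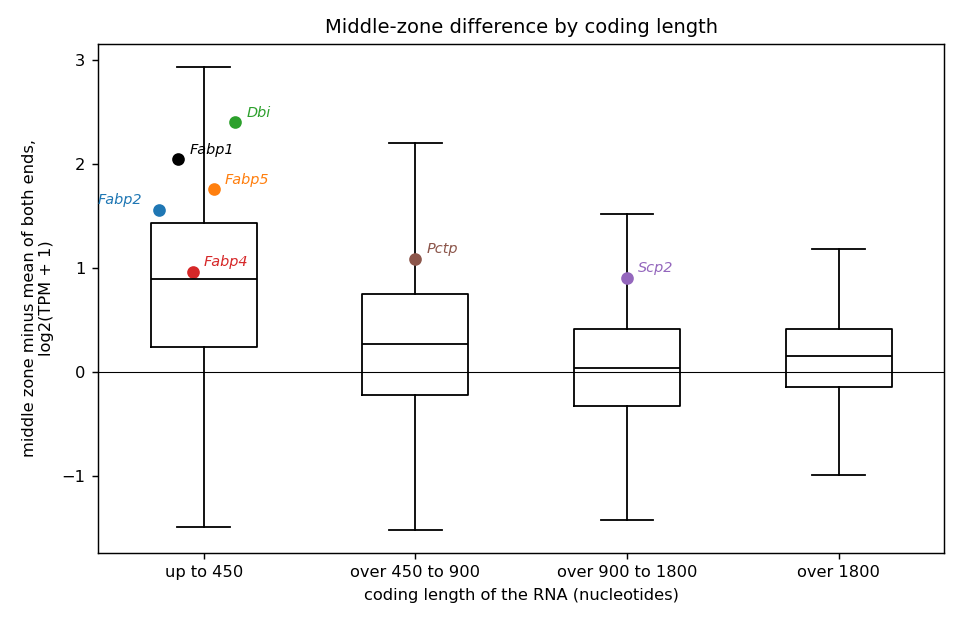
Middle zone minus the mean of both ends in log2(TPM + 1) (y axis) by class of coding length in nucleotides (x axis). Boxes show the quartiles and median of all genes tested in a class, whiskers reach the last gene within 1.5 box lengths, and colored points are the 7 RNAs, of which Fabp4 lies near the median of its class and Dbi near the upper end.

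Each RNA was also placed within its own length class. Fabp1 was at percentile 94.8 of the class of at most 450 coding nucleotides, Dbi at 98.5, Fabp5 at 88.4, Fabp2 at 80.3 and Fabp4 at 53.8. Pctp was at percentile 88.1 of the class up to 900, and Scp2 at 93.6 of that up to 1800. Of the 4 short RNAs other than Fabp1, Fabp2, Fabp5 and Dbi passed the test, beside the 48.6% of their class.

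The wider set of lipid-handling genes was examined through 8 lists of related genes, taken by function. Of the 71 tested genes in them, 10 were higher in the middle zone than in the mean of both ends (14.1%, beside 13.5% of all genes) and 1 was lower (beside 3.61% of all genes), and the median difference was 0.08 beside 0.15. With the gradient as a block 23 of the 71 were higher (32.4%, beside 34.8% of all genes) and 9 were lower (12.7%, beside 16.1%). The highest fraction lay in the middle zone in both gradients for 5 of the 71 (7.04%, beside 9.27% on the base of all genes tested). Fabp7, the brain form of the fatty acid binding proteins, had a difference of 0.12 (log2, adjusted p = 0.855, limma), and it is named for its family and not for its value.

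Relatives of the other 3 proteins can be read against the 13.5% of all genes that were higher. Of 5 tested proteins with an acyl-CoA binding domain, Acbd6 was higher in the middle zone (0.73, adjusted p = 0.0249), and of 3 other genes with an SCP2 domain none passed by limma without the block. With it, Acbd4 (0.63, adjusted p = 0.0372), Eci2 (0.49, adjusted p = 0.0365) and Hsd17b4 (0.47, adjusted p = 0.0163) passed too, named here because so few genes were concerned and after their values were seen. Hsd17b4 was higher in the dense than in the middle zone (1.13, adjusted p = 0.0413 without the block) and Eci2 was 0.11 higher there (adjusted p = 0.796), so only Acbd4 had its highest zone mean in the middle. Of 12 tested START domain genes, Stard7, a mitochondrial phosphatidylcholine carrier (0.85, adjusted p = 0.0109), and Stard5, a sterol binder (0.65, adjusted p = 0.0393), were higher. Stard5 was highest at fraction 5 in both gradients. Its middle zone was 0.36 above the light one (adjusted p = 0.145, limma), and its dense zone was lower than the middle one (−0.95, adjusted p = 0.0140). Of 19 other lipid transfer genes 4 were higher in the middle zone than in the mean of both ends. They were Ttpa (0.65, adjusted p = 0.0436), the tocopherol transfer protein, which was lower in the middle than in the light zone (−0.57, adjusted p = 0.0443), the phosphatidylinositol transfer protein Pitpna (0.95, adjusted p = 0.0394) and the oxysterol binding protein relatives Osbpl2 (0.85, adjusted p = 0.0165) and Osbpl9 (0.70, adjusted p = 0.0242). Osbpl9 was highest at fraction 9 in both gradients, and its middle zone was 0.27 above the light one (adjusted p = 0.215, limma).

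The steps before and after cytosolic transport are given beside the same 13.5% of all genes that were higher and 3.61% that were lower. Of 12 tested genes of fatty acid uptake and activation, Acsm3, a mitochondrial medium-chain acyl-CoA synthetase, was higher (0.65, adjusted p = 0.0390), and the median was −0.11. Of 10 genes of oxidation entry, esterification and storage, Agpat2, which acylates lysophosphatidic acid at the ER, was lower by 0.95 (log2 difference −0.95, adjusted p = 0.0243), none was higher and the median was −0.29. With the block 2 of these 10 were higher, Cpt2 (0.68, adjusted p = 0.0184), whose dense zone was 0.70 above the middle one (adjusted p = 0.182 without the block), and Lpin2 (0.26, adjusted p = 0.0486), and 3 were lower, Agpat2, Cpt1a (−0.49, adjusted p = 0.00747) and Lpin1 (−0.42, adjusted p = 0.0243), of which all but Agpat2 were named after their values were seen. Of 8 lipid-sensing nuclear receptor genes, Nr1h3, which encodes the oxysterol receptor LXR alpha, was higher (1.13, adjusted p = 0.0145). With the block, which called 34.8% of all genes higher and 16.1% lower, the numbers higher and lower were 5 and 1 of the 12 START domain genes, 7 and 2 of the 19 other transfer genes, 1 and 2 of the 12 genes of uptake and activation, and 3 and 1 of the 8 receptor genes.

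The apolipoproteins, which carry lipids outside the cell and are made on the ER, served as a further comparison. Of 13 tested, Apoc4 was higher in the middle zone (0.95, adjusted p = 0.0236) and Apob, the large structural protein of very low density lipoproteins, was lower (−1.31, adjusted p = 0.0226), beside 13.5% and 3.61% of all genes, and with the block 2 were higher and 2 lower, beside 34.8% and 16.1%. Their median was −0.37, and they ran from −1.31 to 0.95. The 6 intracellular binding proteins other than Fabp1 ran from 0.91 to 2.40, so that Apoc4 lay above Scp2.

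Reads that could belong to more than one gene limit some of these values. Of the stretches of 31 nucleotides in the coding models, none was shared with another gene for Fabp1, Fabp2 and Fabp4, 1.34% were for Pctp and 3.94% for Dbi. Those of Pctp were spread over 533 other genes, of which 307 had values here, and what they add to its TPM was not tested. For Fabp5 33.1% were shared, with 5 processed pseudogenes, and for Scp2 41.5%, all of them with Scp2-ps2 and 0.699% also with Scp2-ps1. None of these pseudogenes had a row in both tables, and how much of the Fabp5 and Scp2 values comes from them was not tested.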

How the data were processed

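The authors prepared stranded libraries depleted of ribosomal RNA, 1 per fraction, used Kallisto to assign reads to the RefSeq RNAs of mm10 by pseudo-alignment, and deposited a TPM value per gene and fraction, keeping genes over 1 TPM in at least 1 fraction. Per the labels, bcl2fastq 2.16.0.10 was used. The version of Kallisto and the summing of transcripts to genes are not given in the sources used here. All 39 value columns matched a labelled fraction. TPM holds no counts, so no count model was used.

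Zone means of log2(TPM + 1) were compared with limma 3.58.1 (eBayes with a trend) in R 4.3.3, for 24 libraries and 6 zone means, two-sided, at adjusted p under 0.05. The gradients come from separate mice. Differences on this scale understate the changes of RNAs with low levels. limma was tested on simulated data.

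Zones of a gradient share a homogenate, so the gradient pairs them. Deviations from the zone means correlated across the 11754 genes at r = 0.665 (light and middle), 0.540 (light and dense) and 0.798 (middle and dense), so every comparison has a second fit with an additive gradient term.

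The 7 genes, the related lists and the marker lists were chosen with earlier results of these data known. Named besides the 7 are, for Fabp1, the 5 genes and, for each other RNA, the 2 genes with the highest lower R among genes of at least 10 TPM in both gradients, and from each related list up to 3 genes per direction with adjusted p under 0.05. A gene that this rule names is not reported here. Alternatives were the pseudocount (0.1), the filter (none or 10 TPM), the block, quantile normalization, rescaling without the 50 most abundant genes, other zone borders and leaving out each zone mean. A middle zone of fractions 12 to 15 was added after the data were seen. Gene models and sequences are from GENCODE M21. Profiles, alignments and plots were made in Python 3.11.15 with SciPy 1.17.1, Biopython 1.88, pandas 2.3.3, matplotlib 3.10.9 and NumPy 2.4.6.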

Additional observations from a re-analysis of the deposited data

How the results depend on the processing

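The number of genes called between the middle zone and the mean of both ends was 2014, and it was 5979 with the gradient as a block, 1188 with zones at fractions 5 to 8, 10 to 13 and 15 to 18, and 0 to 2806 when a zone mean of 1 gradient was left out, with 0 (2057 and 3023 at an unadjusted p under 0.05, limma) without either middle zone mean. Between the middle and light zones the number was 5589, or 8478 with the block and 2913 to 6042 with a zone mean left out. Between the dense and light zones it was 7274, or 4798 with a filter of 10 TPM and 5098 to 7156 with a zone mean left out. Between the dense and middle zones it was 3208, or 6275 with the block, 0 with a middle zone of fractions 12 to 15 (2560 at an unadjusted p under 0.05, chosen after the data were seen) and 0 to 2447 with a zone mean left out. The cause of these shifts was not tested. Of the 6 RNAs other than Fabp1, 4 were called against the mean of both ends, and 3 to 6 were under the other settings and 0 to 5 with a zone mean left out. The only reversed value was the difference of Fabp4 from the middle to the dense zone, 0.58, which was −0.092 with a middle zone of fractions 12 to 15.

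Besides the calls of Fabp4, Fabp5 and Pctp given with their values, the block changed no call of the 6 RNAs other than Fabp1, nor that of Fabp1 between the dense and light zones. Quantile normalization and rescaling moved the median middle-zone difference of all genes from 0.15 to 0.02 and 0.03. They changed the share of all genes called higher and lower in this comparison from 13.5% and 3.61% to 10.4% and 6.92% and to 10.1% and 4.67%, and quantile normalization changed that from middle to dense from 4.79% and 22.5% to 10.3% and 13.7%. Leaving out a whole gradient was not run, since no residual degrees of freedom would remain. With 1 mouse per gradient, 2 gradients and unknown depth, RNAs at the level of Fabp4 in the light zone are known least precisely.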
